A study of Homo sapiens with 8 samples.

Results

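The regions described here are the gene-free ones among the genomic regions that the study tested for a change of macroH2A1 after loss of ANP32B. A tested region was taken as gene-free when its interval shared no base with the span of a RefSeq gene of any type on chromosomes 1 to 22. This held for 1215 of the 4261 tested regions on these chromosomes, and for that many of the 4474 regions tested in all. The other regions on chromosomes 1 to 22 overlapped noncoding genes only (1274 regions) or lay inside 1 protein-coding gene and touched no other coding gene (819). The remaining 953 overlapped coding genes in another way, such as by crossing a gene end.

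HepG2 cells, a line from a human hepatoblastoma that keeps many hepatocyte features, were transfected with siRNA against ANP32B (siANP32B) or with a control siRNA (siControl), and cells were harvested 3 days later. Chromatin was profiled by CUT&RUN, which cuts DNA free around an antibody bound to chromatin and sequences the fragments, here from cryopreserved cells with 30 min of digestion. The series has 8 libraries, 4 of them with anti-macroH2A1, 2 for siANP32B and 2 for siControl, and each of these comes with its own list of broad domains. The 4 IgG libraries stayed outside all comparisons. The labels do not say whether the 2 replicates of a group came from separate cultures, so their spread, and any p-value on them, may reflect technical variation. How far ANP32B fell, and markers of the HepG2 line, were not analysed here, since domains do not measure expression. The siRNAs, as the labels give them, define the comparison, and are written 5′ to 3′ as RNA.
siANP32B: ugacuaccgagagagugucuu
siControl: ugguuuacaugucgacuaa

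MacroH2A1 is a variant of histone H2A that carries a large globular domain besides its histone part, and it is known from broad stretches of weakly transcribed chromatin and from the inactive X chromosome. ANP32B is an acidic histone chaperone. Sequence between genes holds many of the distant enhancers of developmental genes, which often sit in long stretches without coding genes, and in differentiated cells much of it is packed in repressive chromatin.

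Gene-free regions were narrower than the other tested regions, which follows in part from the rule, since a narrow interval is less likely to touch a gene. They spanned 23.3 Mb in all, with a median width of 16 kb (interquartile range 12 to 21 kb, from 10 to 105 kb), against 19 kb (14 to 33 kb, from 10 to 300 kb) for the other tested regions of chromosomes 1 to 22. The nearest protein-coding gene lay at a median distance of 27.1 kb (interquartile range 7.91 to 87.0 kb), and the farthest at 2023 kb. An annotated gene of any type was closer, at a median of 9.63 kb. The stretch without any annotated gene that held a region measured 71.7 kb at the median, and the region took up 25.4% of it. The 1215 regions fell into 1084 such stretches and had 1020 different nearest coding genes. On the gene-dense chromosome 19 they made up 13.1% of the tested regions, and on chromosome 13, which is poor in genes, 38.9%. The edge of the rule made little difference to the values. The fold of a region is that of a representative window, and log base 2 is assumed here because the header does not name the base. The 103 gene-free regions with a gene within 1 kb had a median log2 fold of -0.56 in the authors' deposited table, and the 283 regions left out that overlapped genes by under 1 kb had -0.55.

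Some gene-free regions end close to the start of a coding gene, and the promoters there show what kind of sequence the domains run into. RefSeq promoters (GRCh38.p14, 250 bases before to 50 after the start) are shown for NR1I3, the constitutive androstane receptor gene, and ALB, the albumin gene, which lie beside gene-free regions whose change did not pass the test. The others are PIAS1, a SUMO ligase gene, and SLAIN2, a microtubule regulator gene, beside gene-free regions with more macroH2A1 after siANP32B. These 4 were chosen after their values were seen, and capitals mark each CG, the dinucleotide that is methylated in vertebrate DNA. They stand at chr1:161238154-161238453 (minus strand, NR1I3), chr4:73404037-73404336 (plus, ALB), chr15:68054065-68054364 (plus, PIAS1) and chr4:48341279-48341578 (plus, SLAIN2).
NR1I3: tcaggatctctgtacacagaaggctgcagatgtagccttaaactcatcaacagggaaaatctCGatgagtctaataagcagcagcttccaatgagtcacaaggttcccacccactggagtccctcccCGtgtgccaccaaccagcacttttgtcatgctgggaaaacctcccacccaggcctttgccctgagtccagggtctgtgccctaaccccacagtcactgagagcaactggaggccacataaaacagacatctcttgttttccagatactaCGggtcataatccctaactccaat
ALB: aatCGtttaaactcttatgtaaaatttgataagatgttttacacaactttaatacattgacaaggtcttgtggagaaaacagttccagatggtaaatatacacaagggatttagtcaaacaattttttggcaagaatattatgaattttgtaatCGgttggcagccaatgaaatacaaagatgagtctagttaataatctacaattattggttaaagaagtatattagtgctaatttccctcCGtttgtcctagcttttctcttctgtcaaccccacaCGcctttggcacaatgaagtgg
PIAS1: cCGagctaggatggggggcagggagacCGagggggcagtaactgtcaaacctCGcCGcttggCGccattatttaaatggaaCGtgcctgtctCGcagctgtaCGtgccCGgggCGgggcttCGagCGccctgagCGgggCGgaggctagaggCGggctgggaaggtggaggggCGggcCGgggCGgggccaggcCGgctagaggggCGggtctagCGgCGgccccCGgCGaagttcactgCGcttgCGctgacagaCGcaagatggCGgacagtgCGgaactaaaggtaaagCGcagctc
SLAIN2: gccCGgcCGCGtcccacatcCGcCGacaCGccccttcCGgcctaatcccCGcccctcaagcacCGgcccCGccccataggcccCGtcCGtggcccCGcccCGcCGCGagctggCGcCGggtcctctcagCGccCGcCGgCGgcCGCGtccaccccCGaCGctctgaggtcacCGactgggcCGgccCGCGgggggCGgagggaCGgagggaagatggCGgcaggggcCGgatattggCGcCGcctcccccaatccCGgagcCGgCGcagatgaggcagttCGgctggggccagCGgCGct

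The NR1I3 promoter has 3 CG and the ALB promoter 4, while PIAS1 has 30 and SLAIN2 has 42. This contrast does not hold by call over all starts that face a gene-free region at under 10 kb: the median was 30 CG for the 5 promoters beside higher regions and 28 for the 109 beside lower regions. None of these 4 holds the letters TATAAA on the strand shown. The NR1I3 start lay in a domain in all 4 libraries. The ALB start and the SLAIN2 start were each in a domain in both siANP32B libraries and in siControl replicate 1, but not in siControl replicate 2. The PIAS1 start was in a domain in siANP32B replicate 1 and siControl replicate 2. For the 188 coding genes whose start faces a gene-free region at under 10 kb, the start lay in a domain for 77.7% and 71.8% in the siANP32B libraries, against 72.3% and 64.4% in the siControl libraries, so the groups overlapped. The 83 of these promoters in a domain in all 4 libraries had a median of 26 CG in 300 bases (interquartile range 7.5 to 36), and the 98 that were in a domain in 1 to 3 libraries had 30 (19 to 40). Over all 15101 coding promoters of the RefSeq table on these chromosomes the median was 22, so the genes next to gene-free regions include both kinds of promoter. TATAAA, read on the promoter's own strand, occurred in 8 of the 188 promoters (4.26%) and in 7.04% of all 15101.

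After siANP32B, macroH2A1 was lower in most gene-free regions and higher in few. The authors' deposited table puts 723 of the 1215 gene-free regions (59.5%) past a false discovery rate of 0.05 as lower, against 58.4% of all 4474 tested regions. It puts 42 (3.46%) past that threshold as higher, against 3.82% of all tested regions in the authors' deposited table, and 450 did not pass. None was called mixed, against 0.0671% of all tested regions in the authors' deposited table. At a false discovery rate of 0.01 the gene-free regions held 531 lower ones (43.7%), against 42.5% of all tested regions in the authors' deposited table, and 31 higher ones, against 2.79% of all tested regions in the authors' deposited table. These shares are close to those of the whole table. Of the gene-free regions, 1091 (89.8%) had a fold below 0 in the authors' deposited table, against 89.2% of all tested regions. No source used here says how the libraries were scaled, so the place of 0 and with it the split between lower and higher is not fixed by these data.

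The median log2 fold of the gene-free regions was -0.53 (interquartile range -0.73 to -0.29) in the authors' deposited table, where all tested regions had -0.54. It was -0.69 over the gene-free regions called lower and +0.72 over those called higher in the authors' deposited table. Among the lower gene-free regions, 60 (4.94% of the 1215) had a log2 fold of -1 or less, against 5.77% of all tested regions in the authors' deposited table. Of the higher ones, 8 had a log2 fold of 1 or more, and 0.782% of all tested regions had one in the authors' deposited table. Every tested window was counted as down in 548 gene-free regions (45.1%), against 37.6% of all tested regions in the authors' deposited table. Windows were counted both up and down in 1 of the 1215 gene-free regions and in 18 of all 4474 tested regions of the authors' deposited table. A single window was tested in 190 of the 1215 gene-free regions, against 502 of all 4474 tested regions in the authors' deposited table, and these can go only one way.

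**Figure D1:**
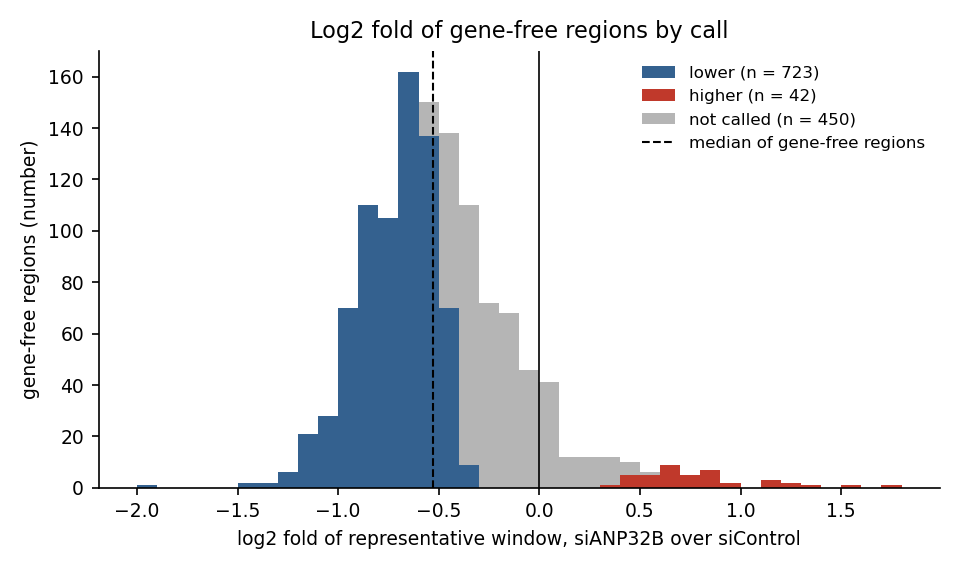
Histogram of the authors' deposited log2 fold of siANP32B over siControl (x axis, bins of 0.1) for the 1215 gene-free regions (y axis, number of regions), coloured by call at a false discovery rate of 0.05, with a dashed line at the median of -0.53. The 723 lower regions form the left part, the 450 uncalled regions lie around and left of 0, and the 42 higher regions are spread up to 1.71.

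Wider gene-free regions were called more often, in both directions. The share called lower in the authors' deposited table was 51.1% for the 190 gene-free regions of 10 kb, 54.9% at 11 to 14 kb, 61.9% at 15 to 19 kb, 62.9% at 20 to 39 kb and 76.7% for the 73 of 40 kb or more. The other tested regions of chromosomes 1 to 22 ran from 47.1% at 10 kb through 50.7%, 56.6% and 58.9% to 74.8% at 40 kb or more in the authors' deposited table. The share called higher also climbed over the 5 bins of gene-free regions, through 1.58%, 1.85%, 3.17%, 5.43% and 8.22%, and was 1.08% at 10 kb and 6.08% at 40 kb or more in the other regions of the authors' deposited table. In each width bin the gene-free share called lower stood above that of the others, a difference that was not tested. The median number of windows tested climbed with width from 1 to 30 in the gene-free bins of the authors' deposited table, so how much width acts through the number of windows was not tested. These bins were chosen with earlier results of these data known.

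**Figure D2:**
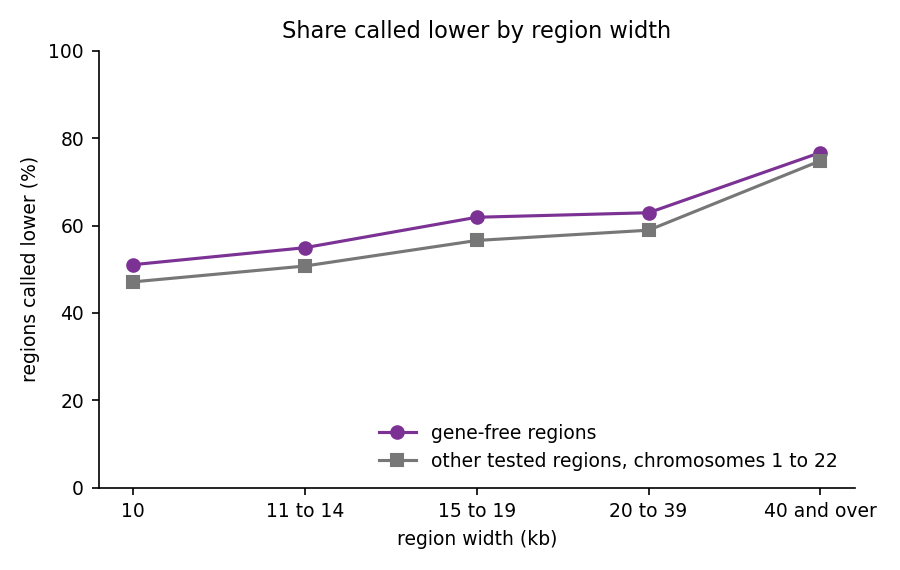
Share of regions called lower by the authors (y axis, percent) in 5 bins of region width (x axis, kb), for gene-free regions and for the other tested regions of chromosomes 1 to 22. Both lines climb, from 51.1% to 76.7% in gene-free regions and from 47.1% to 74.8% in the others.

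Median folds hardly differed with distance from coding genes up to 200 kb, while the share called higher did. In the authors' deposited table, the median log2 fold was -0.51 for the 357 gene-free regions within 10 kb of a coding gene, -0.52 for the 423 at 10 to 50 kb and -0.52 for the 288 at 50 to 200 kb. It was -0.65 for the 147 gene-free regions more than 200 kb away, of which 100 (68.0%) were lower and 6 higher in the authors' deposited table. In the 3 nearer bins 58.0% to 58.5% were lower in the authors' deposited table. Higher calls made up 1.68% within 10 kb, 2.84% at 10 to 50 kb, 6.25% at 50 to 200 kb and 4.08% beyond in the authors' deposited table, which was not tested. Across the 1215 regions, which share windows of chromatin and libraries and are not independent, the fold and the log10 distance had a Pearson r of -0.04 and a Spearman rho of -0.07. The far regions also stood out in domain coverage, with a mean of 77.9% of their length in siANP32B domains and 84.0% in siControl domains. By orientation of the nearest coding gene, 322 of 566 gene-free regions facing its start (56.9%) and 216 of 353 facing its end (61.2%) were lower in the authors' deposited table. For the 296 with unknown orientation the share was 62.5% in the authors' deposited table, so the known classes differ by less than this class does from the first.

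**Figure D3:**
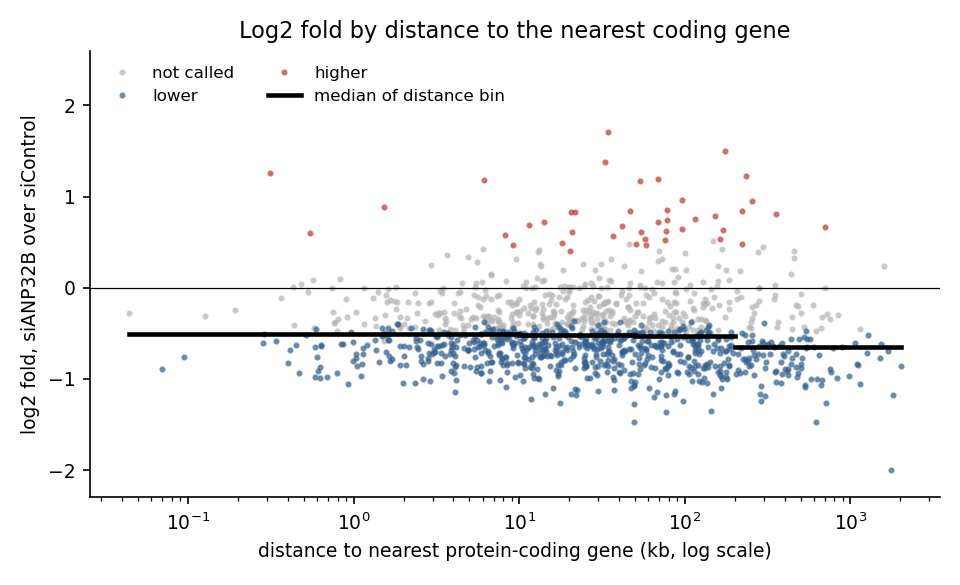
Log2 fold of siANP32B over siControl in the authors' deposited table (y axis) against the distance to the nearest protein-coding gene (x axis, kb, log scale) for each of the 1215 gene-free regions, coloured by call; black bars are the medians of 4 distance bins. The bars lie between -0.51 and -0.52 up to 200 kb and at -0.65 beyond.

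Nearly all gene-free regions lay in macroH2A1 domains with either siRNA. On average 92.3% and 93.7% of a gene-free region was in a domain in the 2 siANP32B libraries, against 95.2% and 92.1% in the 2 siControl libraries. The means were 93.0% ± 0.994 after siANP32B and 93.7% ± 2.24 with siControl (SD, n = 2 each). The difference of -0.622 points was smaller than the spread between replicates (two-sided exact permutation p = 1, where 2 libraries against 2 can give no p below 0.333). It turned to 0.961 points without siControl replicate 1 and to 0.0813 without siANP32B replicate 1, and it was -11.3 points when the domains with the lowest caller's scores, pooled over the libraries, were dropped. Domains took up 50% or more of the length in 94.0% and 95.5% of gene-free regions after siANP32B, against 96.8% and 94.6% with siControl (exact permutation p = 0.667). All 4 libraries fully covered 786 gene-free regions (64.7%), against 66.7% of the other tested regions of chromosomes 1 to 22. Over all tested regions, which include those on the X chromosome, the share was 63.1%. Mean covered shares of the other regions of chromosomes 1 to 22 were 95.0% and 95.7% in the siANP32B libraries and 96.2% and 94.0% in the siControl libraries. The gene-free mean was thus the lower one in each library, which was not tested.

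The domains around gene-free regions measured longer in both siANP32B libraries than in either siControl library. The domain with the longest overlap had a median length of 103 and 105 kb in the siANP32B libraries and of 91 and 81 kb in the siControl libraries, or 104 ± 1.41 kb and 86.0 ± 7.07 kb (SD, n = 2 each). The groups did not overlap, and the exact permutation p was 0.333, the smallest this design allows. Around the other tested regions of chromosomes 1 to 22 the medians were 111 and 117 kb after siANP32B against 105 and 90 kb with siControl, a difference of 16.5 kb beside the 18 kb of the gene-free regions. The longest domain that held a gene-free region measured 2158 and 1386 kb in the siANP32B libraries and 1182 and 870 kb in the siControl libraries.

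These domains also ran into coding genes more often in both siANP32B libraries. Of the gene-free regions in a domain, that domain ran into a protein-coding gene for 61.5% and 61.6% in the siANP32B libraries and for 56.8% and 50.1% in the siControl libraries. It held the start of the nearest coding gene, where that start was known, for 44.4% and 42.7% after siANP32B, against 39.3% and 32.1% with siControl. Neither pair of groups overlapped, with an exact permutation p of 0.333 for both, the smallest possible. The differences, 8.07 and 7.82 points, shrank to 4.73 and 4.21 points without siControl replicate 2. The domain lists as a whole also covered more sequence, 564 and 559 Mb in the siANP32B libraries against 519 and 467 Mb in the siControl libraries. Of all 15101 coding starts, 33.4% and 29.4% were in a siANP32B domain and 30.1% and 23.3% in a siControl domain. Whether the reach into genes is particular to gene-free regions was not tested. Around the gene-free regions called lower in the authors' deposited table, the median domain measured 106 and 115 kb in the siANP32B libraries and 104 and 90 kb in the siControl libraries. The gain of 13.5 kb there was smaller than around the uncalled regions (25 kb) and the higher regions (25.5 kb). These differences by call were not tested.

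**Figure D4:**
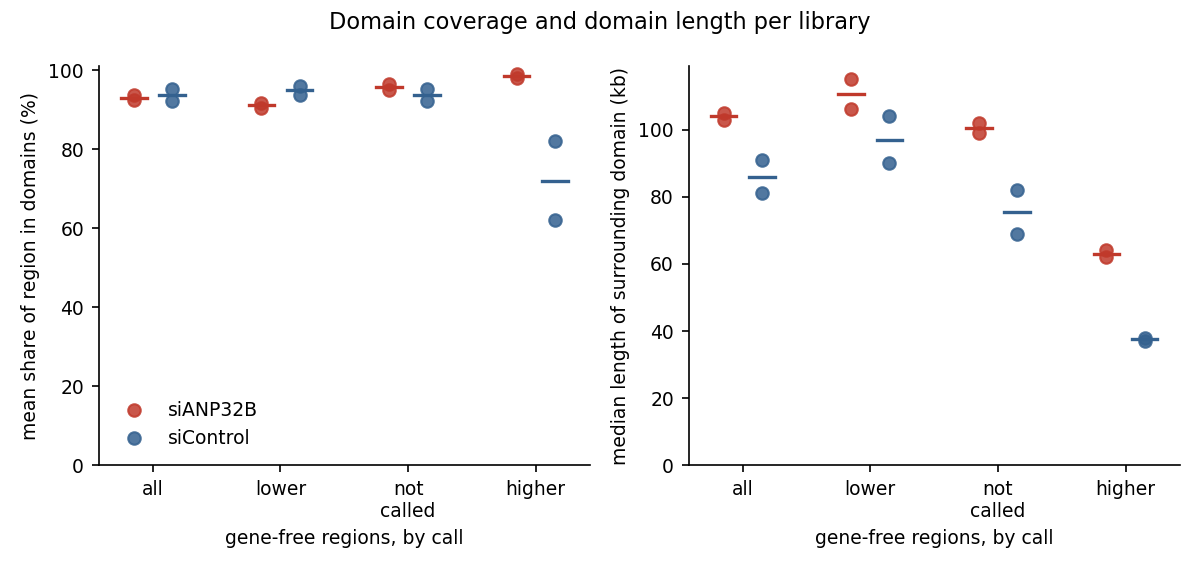
Left, mean share of region length in domains (y axis, percent); right, median length of the domain around a region (y axis, kb), for all gene-free regions and for those called lower, not called and higher by the authors (x axis). Each point is 1 library, siANP32B in red left of siControl in blue, and bars are means of 2 libraries; the higher regions stand at 99.1% and 98.1% in the siANP32B libraries, against 81.9% and 62.0% in the siControl libraries.

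Coverage moved in opposite directions in lower and higher gene-free regions, which is a description, since calls and domains come from the same libraries. Which set is called higher was itself read from coverage over all tested regions, as given below. Regions called lower were covered by 90.3% and 91.8% in the siANP32B libraries and by 96.0% and 93.8% in the siControl libraries. Regions called higher were covered by 99.1% and 98.1% after siANP32B, against 81.9% and 62.0% with siControl. The gap of 26.6 points in the higher regions was 16.7 points without siControl replicate 2. The domains around the higher regions were short, with medians of 64 and 62 kb after siANP32B and of 38 and 37 kb with siControl. Over all tested regions, those with positive folds were covered by 94.5% and 95.6% in siANP32B and by 86.5% and 80.1% in siControl libraries. The sign of the folds was read from this, since the header of the authors' deposited table does not say which siRNA is on top.

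A gene-free region between FBXO4 and GHR, the growth hormone receptor gene, had the smallest false discovery rate of all gene-free regions. At chr5:42090001-42129000 (hg38), 49.6 kb from FBXO4 and 294 kb from GHR, the authors' deposited table gives a log2 fold of -1.47 (FDR 1.39e-17), which leaves 36.0% of the siControl level in the representative window. All 30 windows were counted as down in the authors' deposited table. Domains covered the region fully in all 4 libraries and measured 52 and 73 kb in the siANP32B libraries and 75 and 97 kb in the siControl libraries. So the domain call was kept while the level fell, and here the surrounding domain was shorter in both siANP32B libraries.

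The next 4 lower gene-free regions by p-value follow. TBX3, a T-box factor gene of limb and mammary development, lies 144 kb from chr12:114828001-114879000, with a log2 fold of -1.35 in the authors' deposited table (FDR 1.46e-11). LHX2, a LIM homeobox gene, lies 76.7 kb from chr9:124110001-124160000, with -1.36 in the authors' deposited table (FDR 2.52e-11). Between the zinc finger factor genes SP8 and SP4, chr7:21354001-21379000 had -1.28 in the authors' deposited table, and between SLC2A10 and EYA2, a gene of the eyes absent family, chr20:46808001-46830000 had -1.20. The domain over this last region measured 2158 and 517 kb in the siANP32B libraries and 490 and 370 kb in the siControl libraries. All of these regions were fully covered in the 4 libraries.

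The region between SEC61G and EGFR, the epidermal growth factor receptor gene, spans 63 kb at 98.0 kb from EGFR and had a log2 fold of -1.24 with 17 of 27 windows down in the authors' deposited table. Its covered share was 100% in both siANP32B libraries and 90.5% in both siControl libraries, so its domain grew while its level was lower. The authors' deposited table gives -1.09 at 8.35 kb from AXIN2, a negative regulator of Wnt signalling, with all 24 windows down, and -1.18 between MYH9, a nonmuscle myosin gene, and TXN2. The set is completed in the authors' deposited table by regions next to IPO5 (-1.27), COX7C (-1.24), BLID (-1.13), PLSCR5 (-1.17), HS3ST3A1 (-1.10), the gene model LOC124904103 (-1.18) and IGFBP3 (-1.47).

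The largest rise was near APBB1IP, which encodes an adaptor of integrin activation. At chr10:26602001-26622000, 34.2 kb from APBB1IP, the authors' deposited table gives a log2 fold of +1.71 (FDR 1.66e-14) with all 11 windows up. This region was fully covered in both siANP32B libraries, against 100% and 75% in the siControl libraries. A region 176 kb from ACTL7B on chromosome 9 followed with +1.50 in the authors' deposited table, and its domains measured 57 and 48 kb in the siANP32B libraries and 19 and 33 kb in the siControl libraries.

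Chromosome 16 held a pair of these higher regions. Between SCNN1G and SCNN1B, which encode subunits of the epithelial sodium channel, chr16:23223001-23264000 had a log2 fold of +1.18 with 27 of 32 windows up in the authors' deposited table. The other, 33.2 kb from ZKSCAN2 at chr16:25291001-25305000, had +1.38 in the authors' deposited table. Domains took up all of it in both siANP32B libraries, against 0% and 78.6% in the siControl libraries. PIAS1 lies 0.314 kb from a 64 kb region with +1.26, of which 24 of 42 windows were up in the authors' deposited table, and its promoter is printed above. Further rises in the authors' deposited table lay next to ST8SIA3 (+1.19), GRXCR1 (+1.17), GK2 (+1.22), GDAP2 (+0.96), ZWINT (+0.95), SPATA31D4 (+0.86), SLAIN2 (+0.89), TMCO5A (+0.84), SAMSN1 (+0.83) and SYNPR (+0.75). The SPATA31D genes are near-identical to each other, so mapping around SPATA31D4 is uncertain.

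A few gene-free regions lost or gained their domain outright. In 9 (0.741%) domains took up 50% or more in both siControl libraries and none in either siANP32B library, against 0.961% of all tested regions. The reverse held for 8 (0.658%), against 0.469% of all tested regions. Among the other tested regions of chromosomes 1 to 22 these shares were 0.624% and 0.361%. With so few regions, the counts say nothing particular about gene-free regions. Covered shares of both siANP32B libraries lay below both siControl libraries in 34 gene-free regions (2.80%, against 3.02% of all tested regions). They lay above them in 39 (3.21%, against 3.62%). For the other regions of chromosomes 1 to 22 the shares were 2.40% and 3.91%.

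The clearest loss was in the desert between IGFBP3, which encodes the main carrier of insulin-like growth factors in blood, and TNS3, a tensin gene. At chr7:46539001-46554000, 618 kb from IGFBP3, both siANP32B libraries had no domain, whereas domains of 35 and 32 kb covered the whole region in the siControl libraries. The authors' deposited table gives a log2 fold of -1.47 here (FDR 7.39e-10), with all 6 windows down. A region 86.0 kb from SIM1, a bHLH-PAS factor gene, lost domains of 47 and 25 kb, with -1.16 in the authors' deposited table. The same pattern came with a fall in the authors' deposited table near NUBPL (-0.87), SPTSSA (-0.66), the mucin gene MUC2 (-0.53) and EFNA5 (-0.97), the gene of an ephrin ligand. At the NUBPL and SPTSSA regions, both on chromosome 14, the lost siControl domains were long, between 248 and 1061 kb. Their caller's scores were low among the domains of their library, at percentiles 0.0116 and 6.79 for SPTSSA and 23.7 and 27.4 for NUBPL. Whether such weakly scored calls drop out more easily was not tested.

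Gained domains were mostly short. Between IRX2 and IRX1, Iroquois homeobox genes, chr5:2798001-2810000 had no siControl domain and was fully covered by domains of 23 and 22 kb in the siANP32B libraries, with a log2 fold of +0.84 in the authors' deposited table. Regions near S1PR3 (+0.68), TMTC3 (+0.62) and ZWINT (+0.95) gained a domain with a rise in the authors' deposited table. Of the 8 gains, 3 came without a called change, near DLG1 (-0.26), ZNF22 (+0.01) and FSTL5 (+0.32) in the authors' deposited table. Near ACP3 the authors' deposited table gives -0.54, called lower, although of the 4 libraries only those with siANP32B had domains there, of 46 and 26 kb.

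**Figure D5:**
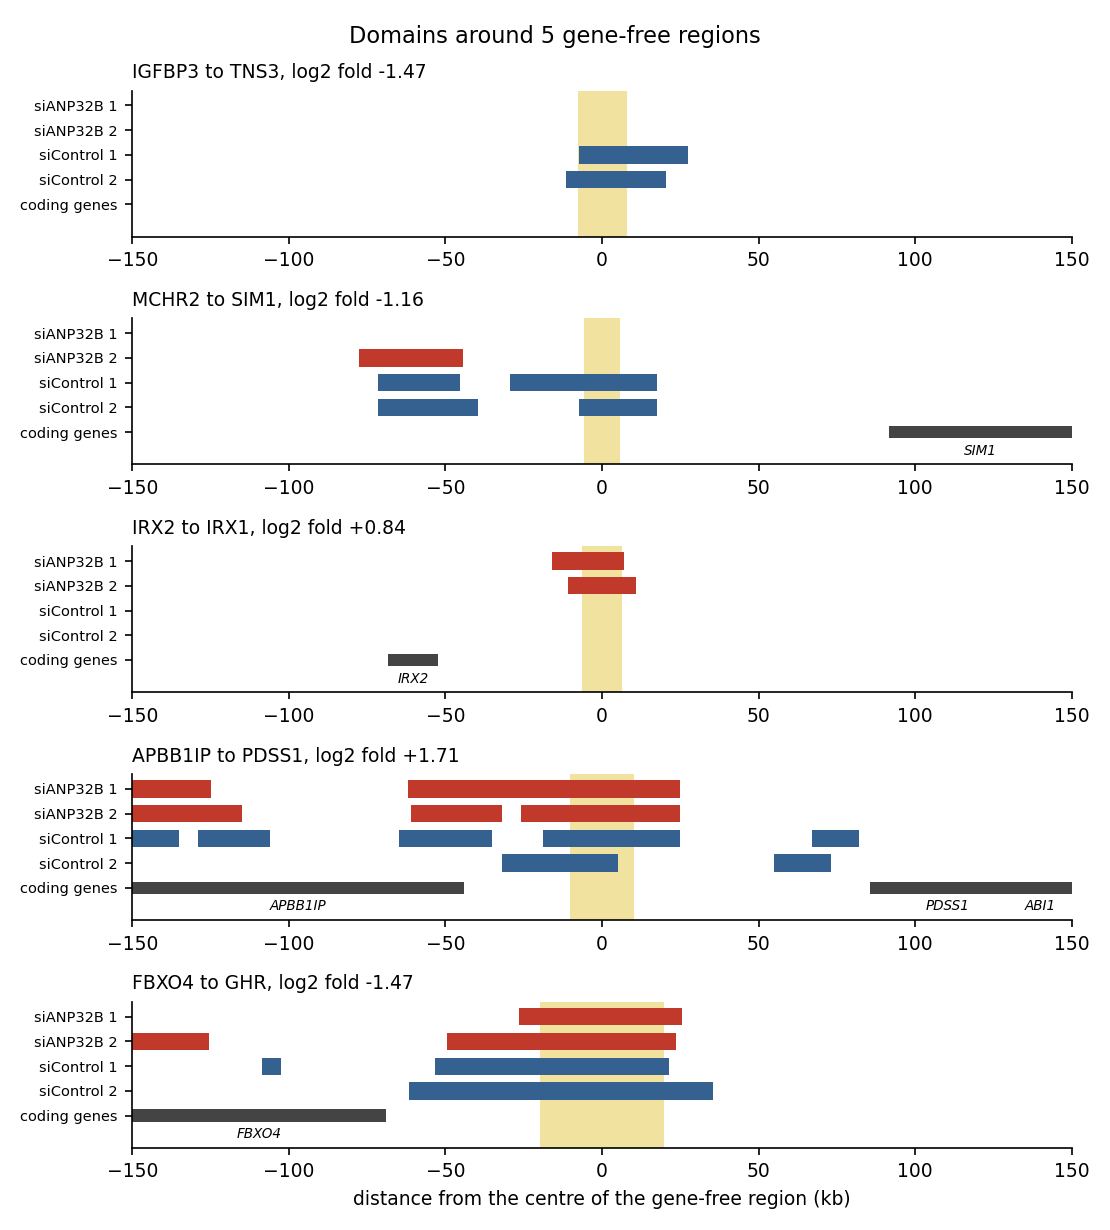
Domains (bars) in the 2 siANP32B libraries (red) and 2 siControl libraries (blue) over 5 gene-free regions (yellow band), with coding genes in grey; the x axis is the distance from the centre of the region in kb. The IGFBP3 to TNS3 and MCHR2 to SIM1 regions have no domain over them in siANP32B, the IRX2 to IRX1 region none in siControl, and the APBB1IP to PDSS1 (+1.71) and FBXO4 to GHR (-1.47) regions carry domains in all 4 libraries.

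In 12 of the 1215 gene-free regions no library had a domain, against 18 of the 3046 other tested regions of chromosomes 1 to 22. Over all 4474 tested regions, which include those on the X chromosome, the number was 127. Of the 12, 10 were called lower in the authors' deposited table, where 58.4% of all tested regions were. They include the lowest fold of all tested regions, -2.00 at chr4:58872001-58887000 in the authors' deposited table, 1762 kb from IGFBP7, and -1.18 at a neighbouring region 1802 kb from the gene. Of the 12, 7 lie more than 200 kb from a coding gene, in intervals flanked by genes such as PCDH7, ADGRL3, EPHA7 and FOXQ1. Another 2 lie beside FAM72C and SRGAP2B, which have near-identical copies and are uncertain for mapping. Leaving out the far regions that were in no domain, 66.4% of the remaining 140 regions beyond 200 kb were lower in the authors' deposited table, close to the 68.0% of all 147.

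Some of the stretches without any annotated gene held several gene-free regions, at most 4. Of 109 such stretches, 48 had only lower regions and 13 had no called region in the authors' deposited table. A higher region was found in 5 of them, 1 of which also held a lower region, in the authors' deposited table; with so few higher regions this says little about whether neighbours moved alike. Intervals between neighbouring coding genes can hold several such stretches, parted by noncoding genes, and held up to 8 gene-free regions. Between NYAP2 and IRS1, the gene of the insulin receptor substrate, all 7 gene-free regions were lower, with log2 folds from -0.94 to -0.53 in the authors' deposited table. They lie in 1 domain of 1070 and 1037 kb in the siANP32B libraries and of 1075 and 870 kb in the siControl libraries, so they are not independent. Between KITLG, the gene of the KIT ligand, and DUSP6, a phosphatase gene of the ERK pathway, 5 of 6 were lower, from -1.02 to -0.61 in the authors' deposited table. The sixth did not pass the test, with a fold of -0.19 in the authors' deposited table. Between INHBB, an activin subunit gene, and GLI2, a factor of the hedgehog pathway, 3 of 5 were lower in the authors' deposited table, down to -0.99. There the domain spanned 1059 and 1021 kb in the siANP32B libraries and 452 and 463 kb in the siControl libraries, more than 2-fold longer after siANP32B at lower levels. The densest interval, between NRP1 and PARD3, was split: 4 of 8 were lower in the authors' deposited table, and the other 4 had folds from -0.36 to -0.06.

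Nearest coding genes were sorted into 10 lists by symbol, and a list counted a region by its nearest gene alone, without showing that the region acts on it. Developmental transcription factors were nearest to 35 gene-free regions, with a median log2 fold of -0.65 in the authors' deposited table. Of these, 26 (74.3%) were lower, 1 was higher and 8 did not pass in the authors' deposited table. All tested regions were lower in 58.4% and higher in 3.82% in the authors' deposited table, a difference that was not tested. Besides TBX3 and LHX2, lower regions of the authors' deposited table lay near SOX9 (-0.98), a factor of cartilage and bile duct cells, SALL1 (-0.79), LHX5 (-0.77), GATA6 (-0.70), PAX2 (-0.71) and SOX2 (-0.77). The higher one is the IRX2 region. Those that did not pass include the regions near SOX4 (-0.37), FOXP1 (-0.47) and MEIS2 (+0.03) in the authors' deposited table. At SOX9, the 65 kb region starts 0.584 kb from the gene, and all 45 windows were down in the authors' deposited table while all 4 libraries covered it fully.

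Immediate early and growth control genes were nearest to 11 gene-free regions, of which 10 were lower and 1 did not pass in the authors' deposited table (median -0.65). Of these, 4 belong to the desert of MYC, between 506 and 884 kb from it, with folds from -0.84 to -0.56 in the authors' deposited table. DUSP5 (-0.94), KLF6 (-0.76), MYCN (-0.67) and IER5 (-0.47) were also among the lower ones of the authors' deposited table. The region that did not pass was another one near IER5 (-0.39 in the authors' deposited table). Adhesion and axon guidance genes were nearest to 29 regions, with 22 lower and 7 not passing (median -0.66), and ion channel genes to 12, with 9 lower and 2 higher (median -0.75) in the authors' deposited table. Near KCNA4, a potassium channel gene, 2 regions fell by 1.27 and 1.01 on the log2 scale in the authors' deposited table. CDH19 (-1.19), PCDH7 (-1.07) and CDH2 (-0.94), genes of cadherins, carried adhesion examples of the authors' deposited table. Other cadherin regions did not pass there, near CDH5 (-0.24) and PCDH9 (-0.45), another near CDH2 (-0.33) and a region near CDH6 (-0.44). The PCDH7 region named here was in a domain only in siControl replicate 1, for 25% of its length. All tested regions had a median of -0.54 with 58.4% lower in the authors' deposited table; how far the lists differ from it was not tested, and they hold few regions each.

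Signalling genes were nearest to 34 gene-free regions, with 24 lower and 10 not passing (median -0.59), and zinc finger genes to 15, with 9 lower and 6 not passing (median -0.48) in the authors' deposited table. Matrix and keratin genes had 6 lower and 1 higher of 8 in the authors' deposited table. The lower ones lay near MMP7 (-1.16), a matrix protease gene, KRT78 (-0.88), COL5A1 (-0.80), KRT18 (-0.76), FN1 (-0.55) and MMP14 (-0.52), and the higher one near COL1A2 (+0.64), in the authors' deposited table. Olfactory receptor genes had 3 regions, 1 lower and 1 higher in the authors' deposited table. No gene-free region had a gene of the blood list as its nearest. The lists were built on symbol starts, so some members, such as IGFBP7 among the signalling genes and TRPC4AP among the ion channels, differ in role from the list's name.

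Hepatocyte genes, whose products HepG2 cells are known for, were nearest to 15 gene-free regions. Of these, 8 (53.3%) were lower, 1 was higher and 6 did not pass in the authors' deposited table (median -0.48). The shares over all tested regions were 58.4% lower and 3.82% higher in the authors' deposited table. Both regions near FOXA2, a pioneer factor of liver development that the developmental list also holds, were lower, with -0.62 and -0.81 in the authors' deposited table. Lower calls in the authors' deposited table also lay near ASS1 (-0.79), an enzyme of the urea cycle, SLC10A1 (-0.66), which imports bile salts, PROX1 (-0.63), ITIH2 (-0.59) and NR5A2 (-0.47). The region 58.4 kb from APOB, the gene of the main protein of low-density lipoprotein, was higher, with +0.47 and 9 of 9 windows up in the authors' deposited table (FDR 0.0202). The regions beside ALB (-0.06), AFP (-0.15), NR1I3 (-0.48), SERPINA1 (-0.42) and ONECUT2 (+0.08) did not pass the test in the authors' deposited table. Domains covered these 15 regions by 98.5% on average in the siANP32B libraries and by 99.7% in the siControl libraries.

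The widest gene-free regions were mostly lower. The widest, 105 kb at 2.88 kb from SPATS2L on chromosome 2, had a log2 fold of -1.03 in the authors' deposited table. The next, 99 kb between RELN, the gene of the extracellular protein reelin, and ORC5, had -1.05 with 45 of 48 windows down in the authors' deposited table. Of the 8 widest, 2 did not pass: 95 kb next to ATF7IP2 (-0.28) and 94 kb between PLXNA1 and PRR23E (+0.42) in the authors' deposited table. At the first of these the domain measured 1431 and 1295 kb in the siANP32B libraries and 319 and 333 kb in the siControl libraries, so a domain several times longer came without a called change of level.

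Chromosomes differed in how many of their gene-free regions were lower. The share ran from 5 of 12 on chromosome 21 (41.7%) and 52 of 111 on chromosome 1 (46.8%) to 75 of 107 on chromosome 2 (70.1%) and 23 of 30 on chromosome 20 (76.7%) in the authors' deposited table. Over all tested regions of the same chromosomes it was 56.2%, 57.9%, 65.7% and 65.7% in the authors' deposited table. HepG2 cells are known to carry extra copies of chromosomes 2, 14, 16, 17 and 20. Without these, 547 of 948 gene-free regions (57.7%) were lower in the authors' deposited table, and the part of copy number in the other values was not tested.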

How the data were processed

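Domain lists of 4 anti-macroH2A1 libraries and 1 table of differential regions were used. The submitters' processing notes name hg38 as the build and SICER, edgeR, Bowtie2, deepTools, SAMtools and Trim Galore as tools, without versions; no source used here gives their settings or the scaling of libraries. The authors called domains per library on a 1 kb grid and deposited a score for each. The score served only to filter domains and to rank the domains lost near NUBPL and SPTSSA. Per the file headers, the deposited table holds for each region a p-value, a false discovery rate, the log2 fold of a representative window, with base 2 assumed from the convention of edgeR, and numbers of windows; it holds no values per library, so no count test was made, and depth is unknown. Its false discovery rates equal a Benjamini-Hochberg adjustment of its p-values over all 4474 regions (largest difference 1.11e-15).

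Gene spans came from RefSeq (GRCh38.p14, the assembly of hg38; 59792 genes, 20056 protein-coding). Regions without a shared base were gene-free; distances run from the nearer end to the gene span. Covered shares and domain lengths were compared by exact permutation tests (Python 3.11.15, SciPy 1.17.1); the covered share was tested on 200 simulated regions. Named regions were the 15 lower and 15 higher with the smallest p-values, the 8 widest, the 5 farthest, 10 each with the largest change of coverage, hepatocyte neighbours and 4 per list; others were chosen after their values were seen, and some named by the rule are not reported here. Members and lists were chosen with earlier results of these data known.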

Additional observations from a re-analysis of the deposited data

How the results depend on the processing

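The change in the mean covered share of gene-free regions (siANP32B minus siControl, -0.622 points) reversed to 2.10 points with equal numbers of best-scored domains per library and to 0.172 points without chromosomes 2, 6, 14, 16, 17 and 20, and ranged from -2.20 to 0.961 points when 1 library was left out. The change in the share with at least 50% of the length in a domain (-0.947 points) reversed to 1.81 points with equal numbers of domains and ranged from -2.06 to 0.165 points with 1 library left out. With domains above a common score the 2 changes were -11.3 and -11.8 points. The causes were not tested. The gain in domain length (18 kb) kept its direction in every setting tried, from 11.2 kb without chromosomes 2, 6, 14, 16, 17 and 20 to 23 kb, and from 13 to 23 kb with 1 library left out. Since the groups did not overlap in domain length, leaving out 1 library could not reverse it. With the replicate number as a block the changes were -0.622 points (p = 1), -0.947 points (p = 1) and 18 kb (p = 0.5), by an exact sign-flip test of 2 pairs that can give no p below 0.5. The labels number the replicates but give no pairing. Deviations of the covered share in the replicate 1 libraries of both siRNAs had r = -0.00875 over 1215 regions. Of these, 786 were fully covered in all 4 libraries, so this r cannot tell whether same-numbered libraries were handled together. The counts of lower and higher gene-free regions in the authors' deposited table, 723 and 42, were 355 and 25 of the 596 regions with no gene within 10 kb, 253 and 23 of the 386 regions of at least 20 kb, and 1518 and 71 of the 2489 regions without a protein-coding gene, where the number of regions itself differs; at a false discovery rate of 0.01 they were 531 and 31. Leaving out 1 library at a time was added after the data were seen for the domain reach and for coverage in called regions. The groups did not overlap in these measures, so it could reverse no direction and shows only how the sizes varied. Depth is unknown, so whether uncalled regions lacked reads cannot be told.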

Other observations

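Gene-free regions on the X chromosome lie outside the regions described so far and belong to no comparison above. There were 122, with a median log2 fold of -0.57 in the authors' deposited table, and 60 (49.2%) were lower, against 58.4% of all tested regions. By the submitters' edgeR results, none was higher at a false discovery rate of 0.05, and at an unadjusted p under 0.05 the number higher was also 0, while 10 had a fold above 0 in the authors' deposited table. Domains had been lost from 12 of the 122 (9.84%) in both siANP32B libraries, against 0.961% of all tested regions. No library had a domain in 56 of the 122, against 127 of all 4474, a number that includes these 56. On chromosomes 1 to 22 this held for 12 of the 1215 gene-free regions and 18 of the 3046 others. Of the 122, 4 were fully covered in all 4 libraries.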
